A study of Mus musculus with 2 samples.

Results

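The BCL2 family decides whether a cell keeps its mitochondria sealed, and 10 of its genes were described here in mouse CD8+ T cells. They are Bcl2, Bcl2l1, Bcl2a1b, Bcl2a1d, Mcl1, Bcl2l11, Bax, Bak1, Bid and Bbc3, taken by symbol from the 32285 genes of the count files, and all 10 were found. The series compared CD8+ T cells kept with and without electrical stimulation through their matrix, by single-cell RNA sequencing with a 10x 3' kit. It holds 2 libraries, NC and HC, both of mouse CD8+ T cells from lymph node. The labels give no strain, age, genotype, number of animals or duration, and they neither spell out NC and HC nor say which of them was stimulated. With 1 library per group there was no test between them, and differences below carry 95% intervals that cover counting error only.

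Proteins of this family act at the outer mitochondrial membrane. BCL2, BCL-XL (made from Bcl2l1), A1 (from the Bcl2a1 genes) and MCL1 bind and hold back the killers. BAX and BAK form the pores that release cytochrome c. BIM (from Bcl2l11), BID and PUMA (from Bbc3) belong to the BH3-only group, which trigger the pore formers and block the protectors. In T cells, the survival of resting cells is known to rest on BCL2 holding BIM in check, whereas A1 is known as an early product of T cell receptor and NF-kappaB signalling. Egr2 encodes a zinc finger factor that is switched on by the T cell receptor, Mki67 a protein of dividing cells, and Bnip3 a mitophagy protein of the same wider family that hypoxia induces.

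Kept cells had at least 500 genes and 1000 UMIs (unique molecular identifiers, 1 per captured RNA molecule) and at most 10% mitochondrial UMIs, which left 13641 NC and 13617 HC cells. Their median depth was 6898 and 7425 UMIs, and their totals were 115789139 and 114430972. A UMI of Cd8a or Cd8b1 without Cd4 was present in 98.4% of NC and 98.3% of HC cells. Summed B cell markers (6 of 6 detected) stood at 51.1 CPM (counts per 1000000 UMIs) in NC and 21.1 in HC, macrophage or dendritic markers at 7.46 and 4.28 with C1qa at 0 in both, and CD4 T cell markers at 0.39 and 0.26. Cell barcodes found in both libraries numbered 64. No cell type here lacks the family, so background RNA was gauged by the antibody gene Igkc in cells without Cd79a and Cd79b, where after thinning it reached 0.26% (NC) and 0.05% (HC). Since each molecule is counted once at its 3' end, CPM are not weighted by gene length. They can still be set side by side only roughly, because genes differ in capture.

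The largest differences in the family lay in the pair of A1 genes, both between the libraries and by Egr2, so their upstream sequences are shown first. Bcl2a1b lies on chromosome 9 at 89199209 to 89207827 (plus strand) and Bcl2a1d at 88723285 to 88731914 (minus strand), both protein-coding (GENCODE vM21, GRCm38). The windows are chr9:89199090-89199209 for Bcl2a1b and chr9:88731870-88731989 for Bcl2a1d, from RefSeq promoters on build GRCm38.p6, each read 5′ to 3′ on its gene's strand. Capitals mark the reverse-strand match to GCGNGGGCG, the letters that EGR factors recognise.
Bcl2a1b: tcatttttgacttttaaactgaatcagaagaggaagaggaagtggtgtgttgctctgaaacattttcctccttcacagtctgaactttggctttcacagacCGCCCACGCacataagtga
Bcl2a1d: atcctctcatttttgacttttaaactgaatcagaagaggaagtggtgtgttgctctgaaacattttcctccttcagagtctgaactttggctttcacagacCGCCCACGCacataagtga
Over these 120 bases, 113 were identical, 1 was mismatched and 12 alignment columns were gaps, an identity of 89.7%. The match begins 82 bases before the RefSeq start of Bcl2a1b and 38 before that of Bcl2a1d. GENCODE places both starts further upstream, so that the match begins 18 bases before the Bcl2a1b start but 26 bases inside the annotated Bcl2a1d transcript.

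Promoters from 250 bases before to 50 after the RefSeq start were searched for all 10 members, on both strands and with overlapping matches kept. GCGNGGGCG was found for 4 of 10 members, Bcl2a1b, Bcl2a1d, Bcl2l11 and Bbc3, and at 5 of the 15 start sites of all members, against 5.55% of all 32851 promoters. The matches of Bcl2a1b and Bcl2a1d lie in the nearly identical stretch printed above, so they are not separate observations. The core letters of the hypoxia element, ACGTG, were found for Bax and Bbc3, at 2 of the 15 start sites, against 19.6% of all promoters. The kappaB element was found for Bcl2l1 and Bbc3, at 2 of the 15 start sites, against 8.46% of all promoters. Such a match is a description of letters only, and no binding was measured here.

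Among the survival genes, Mcl1 was the most abundant, with 27481 UMIs in NC (237 CPM, 235 to 240) and 22264 in HC (195 CPM, 192 to 197). MCL1 is a short-lived protector, and its transcript was 1.22-fold higher in NC (1.20 to 1.24). Bcl2 gave 14830 UMIs in NC and 15797 in HC, or 128 CPM (126 to 130) and 138 CPM (136 to 140). It was 1 of the 2 members that were higher in HC, by 0.11 on the log2 scale (0.08 to 0.14). Cells with more than 5% mitochondrial UMIs, where Bcl2 stood higher, made up 20.8% of NC and 30.5% of HC. Under a stricter filter that left them out and also asked for more genes and UMIs per cell, the log2 ratio was 0.06. It was 0.16 in cells with Mki67 and 0.20 in cells without, both above the value in all cells. The parts of the mitochondrial share and of Mki67 in the Bcl2 difference were not tested. Bcl2l1 was scarce, at 9.76 CPM (9.20 to 10.3) in NC and 9.15 CPM (8.60 to 9.72) in HC, and its intervals overlapped.

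Bcl2a1b gave 10146 UMIs in NC (87.6 CPM, 85.9 to 89.3) and 4905 in HC (42.9 CPM, 41.7 to 44.1). It was 2.04-fold higher in NC (1.98 to 2.12). Bcl2a1d gave 4257 and 1812 UMIs, or 36.8 CPM (35.7 to 37.9) and 15.8 CPM (15.1 to 16.6), a level 2.32-fold higher in NC (2.20 to 2.45). Both log2 ratios lay at the low end of all genes tested, at percentiles 0.16 and 0.13. These copies are hard to separate by sequence: their main transcripts of 817 and 863 bases had 7 mismatches and 93.9% identity, and only 2 mismatches fell within the last 300 bases, where this assay reads. The split between Bcl2a1b and Bcl2a1d is thus uncertain. Their sum does not depend on that split, but how reads that match several copies were counted is not given in the sources used here. The other copies were given few UMIs, Bcl2a1a 11 in NC and 4 in HC and Bcl2a1c 1 and 0. Bcl2a1a also had only 2 mismatches to Bcl2a1d within the last 300 bases (99.3% identity), so its low count is uncertain too. Bcl2a1 genes are also expressed by B and myeloid cells, whose summed markers were higher in NC. In an alternative, cells that held a UMI of chosen markers of other cell types were left out. The log2 ratio of HC over NC was then -1.03 for Bcl2a1b and -1.21 for Bcl2a1d (-1.03 and -1.22 in all cells). Those markers did not include Igkc (20.8 CPM in NC and 1.99 in HC) or Cd74 (15.6 and 4.67), the B cell markers with the widest gaps. The part of such cells in the A1 difference was not tested.

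On the death side, the pore former Bax led with 24285 UMIs in NC (210 CPM, 207 to 212) and 20722 in HC (181 CPM, 179 to 184). The other pore former, Bak1, was at 45.4 CPM (44.2 to 46.6) and 44.2 CPM (43.0 to 45.5), and the interval of its log2 ratio (-0.09 to 0.02) held 0. Bcl2l11 was at 61.7 CPM (60.3 to 63.1) in NC and 52.2 CPM (50.9 to 53.6) in HC. Bbc3, the gene of PUMA, was at 41.5 CPM (40.3 to 42.7) and 43.4 CPM (42.2 to 44.6), slightly higher in HC. Its log2 ratio was 0.06 in all cells, 0.15 in cells with Mki67 and 0.17 in cells without. Bid was the scarcest member, at 8.21 CPM (7.70 to 8.75) and 6.14 CPM (5.70 to 6.61), 1.34-fold higher in NC. It overlaps Bcl2l13 on the opposite strand, which held 1464 and 1484 UMIs, and whether strand was used in counting is not given in the sources used here. Bak1 overlaps Ggnbp1 in the same way (70 and 95 UMIs).

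A gene was called different where its level differed at least 1.5-fold, provided that NC or HC reached a floor of 5 CPM. All 10 members passed it. Of these, 2 were called higher in NC, against 1.47% of the 8704 genes tested, and 0 higher in HC, against 1.93%. Log2 ratios were below 0 in 8 of 10 members, 4 of 5 on the survival side and 4 of 5 on the death side. Their median was -0.23, and that of all genes tested was -0.03. Apart from the A1 pair, every member differed less than 1.5-fold.

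**Figure D1:**
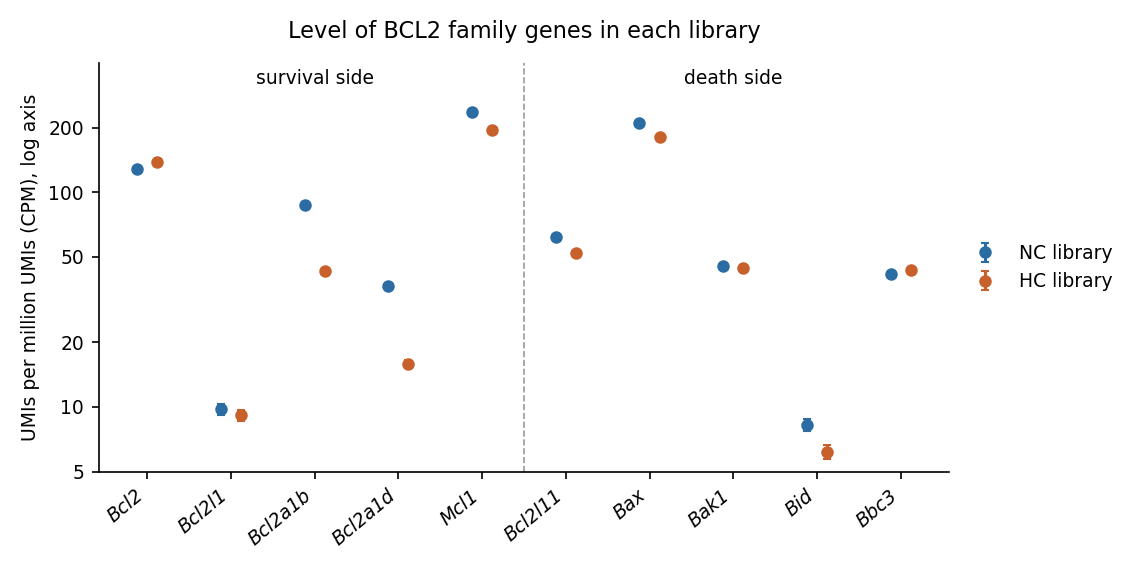
Levels of the 10 members in CPM on a log axis, with NC in blue and HC in orange and 95% Poisson bars for counting error, mostly smaller than the points. Mcl1, Bax and Bcl2 stand highest, and the widest gaps between the libraries are at Bcl2a1b (87.6 and 42.9 CPM) and Bcl2a1d (36.8 and 15.8 CPM).

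Shares of cells with a UMI were taken after each cell was thinned to 2000 UMIs, with 133 NC and 94 HC cells left out as too shallow. Mcl1 was seen in 38.0% of cells in NC and 32.8% in HC (78.6% and 74.1% before thinning), and Bax in 31.9% and 27.3% (70.4% and 65.0%). Bcl2 was seen in 21.7% (21.0 to 22.4) and 23.4% (22.7 to 24.2). Bcl2a1b was seen in 12.5% (11.99 to 13.12) in NC and 6.64% (6.23 to 7.07) in HC, or 34.9% and 22.9% before thinning. Bcl2a1d was seen in 5.65% (5.27 to 6.05) and 2.55% (2.29 to 2.83). Both the share of cells and the amount per positive cell were higher in NC for Bcl2a1b, since positive cells held 2.13 UMIs on average in NC and 1.57 in HC before thinning. Its UMIs were also the most uneven of the 10 among thinned cells, with a variance of 1.30 times the mean in NC and 1.18 in HC, where 1 is the value for even sampling. The fullest cell held 23 UMIs of Bcl2a1b in NC and 13 in HC.

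The remaining shares were close in the 2 libraries. Bcl2l11 was seen in 11.1% and 10.1% of thinned cells, Bak1 in 8.34% and 8.42%, Bbc3 in 8.40% and 8.45%, and Bid in 1.36% and 1.21%. Bcl2l1 was seen in 1.69% and 1.94%, an order opposite to that of its CPM, so none is read from it. Within the family's own UMIs, Mcl1 made up 27.4% in NC and 26.7% in HC, Bax 24.2% and 24.9%, Bcl2 14.8% and 19.0%, and Bcl2a1b 10.1% and 5.89%. The A1 pair thus took a smaller part of the family in HC and Bcl2 a larger one.

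The balance of survival to death UMIs was the sum of Bcl2, Bcl2l1, Bcl2a1b, Bcl2a1d and Mcl1 over that of Bcl2l11, Bax, Bak1, Bid and Bbc3. It was 1.36 in NC (57844 over 42439 UMIs, 1.35 to 1.38) and 1.22 in HC (45825 over 37427, 1.21 to 1.24). On the log2 scale HC was lower by 0.15 (interval -0.18 to -0.13), where the survival sum differed by -0.32 and the death sum by -0.16. The direction rested on the A1 pair: without Bcl2a1b and Bcl2a1d the log2 ratio of the balance was 0.0297 in favour of HC. With every gene weighted alike it was -0.33. Per thinned cell, the family gave 1.70 UMIs in NC and 1.45 in HC. More survival than death UMIs were held by 39.9% of thinned NC cells (39.1 to 40.7), against 35.9% in HC (35.1 to 36.8). The reverse was seen in 26.0% and 25.9%, and no UMI of the family in 20.3% and 25.7%.

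Single pairs went in different directions. Bcl2 over Bcl2l11, the protector and the killer set against each other in resting lymphocytes, was 2.08 in NC and 2.64 in HC. Bcl2 over Bax was 0.61 and 0.76. The A1 pair over Bcl2l11 was 2.02 in NC and 1.12 in HC, and Mcl1 over Bbc3 was 5.72 and 4.49. Bcl2a1b over Bcl2a1d was 2.38 and 2.71.

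Egr2 UMIs were present in 538 NC cells (3.94%) and 279 HC cells (2.05%), at a summed level of 6.05 and 3.15 CPM. Cells with Egr2 were deeper, with a median of 10063 UMIs against 6804 in NC and 9521 against 7388 in HC, and the part of depth in the levels that follow was not tested. Bcl2a1b stood at 170 CPM in NC cells with Egr2 and 83.0 in those without, and at 92.0 and 41.5 CPM in HC cells. That was 2.05-fold higher with Egr2 in NC (log2 0.94 to 1.13) and 2.22-fold in HC (0.97 to 1.32). Bcl2a1d stood at 65.4 and 35.2 CPM in NC and at 36.0 and 15.3 CPM in HC, 1.86-fold and 2.35-fold higher. These 2 members were called higher in cells with Egr2 in both libraries, against 3.68% of genes in NC and 4.05% in HC. At 1 or more UMIs no member was called lower with Egr2, as 1.98% and 2.92% of genes were. When presence was taken after thinning, which left 153 NC cells and 74 HC cells with Egr2, the Bcl2a1d log2 ratio in NC fell to 0.33, under the 1.5-fold line, and that of Bcl2a1b remained past it in both libraries.

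Bcl2 and Mcl1 were higher with Egr2 by less than 1.5-fold. Bcl2 was at 179 and 125 CPM in NC and 184 and 137 CPM in HC, and in NC its log2 ratio passed the line (0.73) for cells with 2 or more Egr2 UMIs. Mcl1 was at 278 and 235 CPM in NC and 232 and 194 CPM in HC. Bcl2l1 was at 11.97 and 9.63 CPM in NC and 12.2 and 9.07 CPM in HC, and both intervals held 0. Its sign turned under alternatives, to -1.40 in NC with presence after thinning and to -1.03 in HC (3 UMIs) at 2 or more Egr2 UMIs. Among the death genes, Bbc3 was lower with Egr2, at 32.4 against 42.0 CPM in NC (log2 -0.38, interval -0.59 to -0.17) and 35.3 against 43.6 in HC (-0.30, -0.59 to -0.03). It passed the 1.5-fold line at 2 or more Egr2 UMIs in both libraries (-0.83 in NC, -1.88 in HC, the latter from 8 UMIs). With presence taken after thinning it was -1.76 in HC (74 cells with Egr2) but only -0.10 in NC (153 cells). Bbc3, Bcl2l11 and the A1 pair carry the GCGNGGGCG letters, and any part of these letters in the levels by Egr2 was not tested. Bcl2l11 was at 74.9 against 61.0 CPM in NC (log2 0.30, 0.16 to 0.43) and 46.8 against 52.4 in HC (-0.16, -0.41 to 0.08), and whether the libraries differ in this was not tested. The balance was 1.82 with and 1.34 without Egr2 in NC, and 1.67 and 1.21 in HC.

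Levels were also read by the number of Egr2 UMIs in a cell. Bcl2a1b went from 83.0 CPM at 0 (13103 cells) to 157 at 1 (423 cells) and 216 at 2 or more (115 cells, 193 to 242) in NC. In HC it went from 41.5 to 87.9 and 107 (83.4 to 134, 60 cells). Bcl2a1d went from 35.2 to 62.8 and 74.2 CPM in NC, and from 15.3 to 37.8 and 29.6 CPM (18.1 to 45.7) in HC. Bbc3 went from 42.0 to 34.9 and 23.5 CPM in NC and from 43.6 to 42.0 and 11.8 CPM in HC, the last from 8 UMIs. The balance was 1.34, 1.72 and 2.17 in NC and 1.21, 1.63 and 1.82 in HC. Deep cells hold more Egr2 UMIs, as median depths of 6804, 9831 and 10842 UMIs in NC show, so depth moved with this order and its part was not tested.

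**Figure D2:**
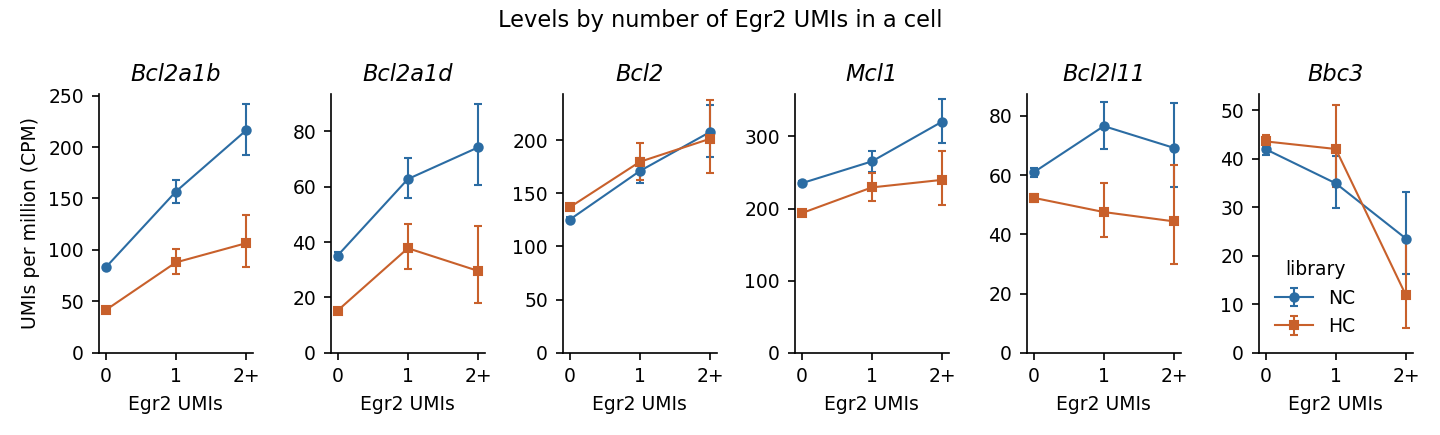
Summed levels of 6 members (CPM, each panel with its own axis from 0) in cells with 0, 1 and 2 or more Egr2 UMIs, with 95% Poisson bars. Bcl2a1b rises from 83.0 to 216 CPM in NC (blue circles) and from 41.5 to 107 in HC (orange squares), while Bbc3 is lowest at 2 or more UMIs in both.

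Mki67 UMIs were present in 7285 NC cells (53.4%) and 9425 HC cells (69.2%). Those cells had medians of 9367 and 8774 UMIs, against 5703 and 5172 without Mki67. Bbc3 was the 1 member called, and it was lower with Mki67: 35.4 against 53.1 CPM in NC (log2 -0.59, interval -0.67 to -0.50) and 39.2 against 59.7 CPM in HC (-0.61, -0.70 to -0.52). Of all genes, 4.33% in NC and 3.89% in HC were called lower with Mki67, and 10.5% and 11.7% higher, where no member was called. Its ratios lie close to the line, and the call ended under 2 of 4 alternatives in NC and 1 of 4 in HC, down to a log2 ratio of -0.28 in HC with presence taken after thinning. Bcl2 was also lower with Mki67, at 114 against 155 CPM in NC and 128 against 179 CPM in HC. Mcl1 stood at 214 against 283 CPM in NC and 188 against 221 CPM in HC. Bcl2l11 stood at 57.6 against 69.5 CPM in NC and 48.4 against 66.9 CPM in HC. Bax went the other way, at 220 against 189 CPM in NC and 188 against 155 CPM in HC. With these, the balance was 1.27 with and 1.54 without Mki67 in NC, and 1.17 and 1.42 in HC. Bcl2a1b differed little by Mki67, at 90.7 against 81.8 CPM in NC and 42.6 against 44.0 CPM in HC.

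Bnip3 UMIs were present in 944 NC cells (6.92%) and 2962 HC cells (21.8%), with medians of 10378 and 9590 UMIs against 6737 and 6909 without. No member was called in either direction, where 0.473% of genes in NC and 1.46% in HC were higher with Bnip3 and 0.265% and 0.15% lower. Bcl2a1b stood at 107 against 85.6 CPM in NC and 51.4 against 39.5 CPM in HC. Bcl2a1d stood at 48.3 against 35.5 CPM and 19.5 against 14.4 CPM, 1.36-fold higher with Bnip3 in both. Bax was at 243 against 206 CPM in NC and 191 against 177 CPM in HC. Over all kept cells, the balance was 1.26 with and 1.38 without Bnip3 in NC, and 1.23 and 1.22 in HC. In NC cells without Egr2 it was 1.162 with and 1.259 without Bnip3 where Mki67 was present. Where Mki67 was absent it was 1.604 with and 1.502 without Bnip3, with overlapping intervals. In HC cells without Egr2 it was 1.171 and 1.161 where Mki67 was present, and 1.437 and 1.386 where Mki67 was absent. The part of Mki67 in the order by Bnip3 was not tested. In the 83 NC cells with 2 or more Bnip3 UMIs the balance was 0.97 (0.87 to 1.08), with Bax at 312 CPM. In the 1121 such HC cells the interval of the balance ran from 1.20 to 1.30.

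**Figure D3:**
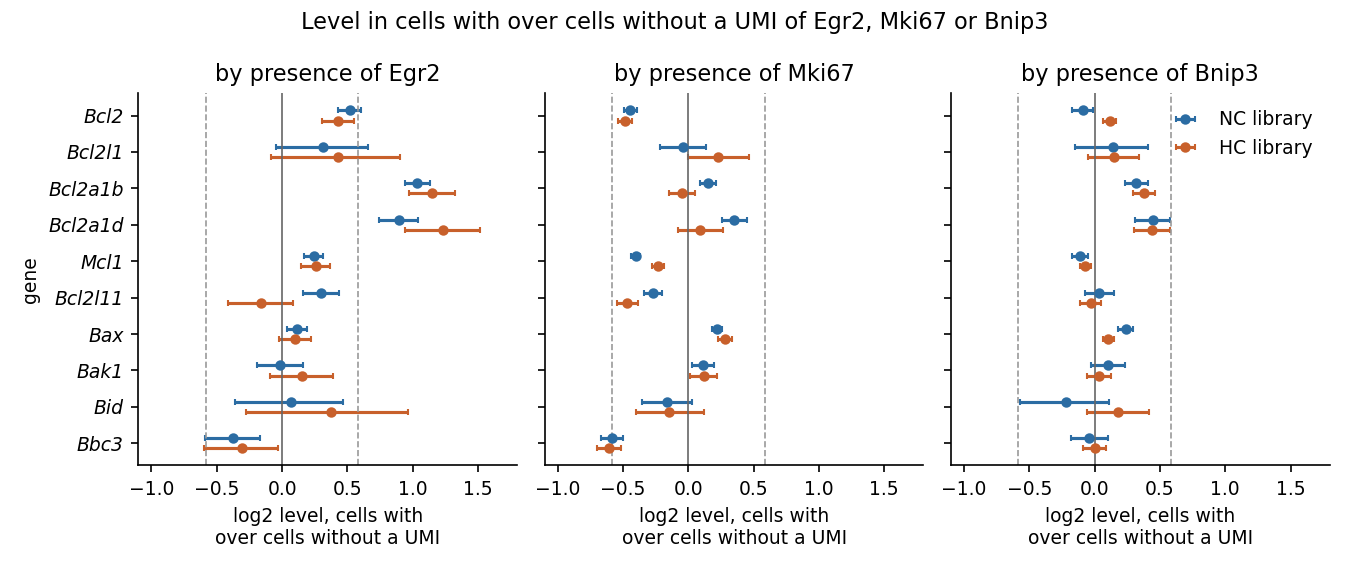
Log2 ratio of each member's level in cells with over cells without a UMI of Egr2 (left), Mki67 (middle) and Bnip3 (right), with 95% intervals for counting error and dashed lines at 1.5-fold. Bcl2a1b and Bcl2a1d lie past the line with Egr2 in both libraries, and Bbc3 lies just past it on the other side with Mki67.

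Differences between the libraries were then taken within the same kind of cell. Bcl2a1b was called higher in NC in all 6 groups of cells, with log2 ratios of HC over NC from -0.89 in Egr2-positive cells to -1.11 in Bnip3-negative cells. Bcl2a1d was called in all 6 as well, from -0.86 in Egr2-positive cells to -1.31 in Mki67-positive cells. No other member was called in 5 of these groups, where 1.26% (Egr2 absent), 1.54% (Mki67 present), 1.92% (Mki67 absent), 3.46% (Bnip3 present) and 1.39% (Bnip3 absent) of genes were higher in NC. None was called higher in HC, where the shares of genes were 6.27% and 1.92% with and without Egr2, 1.78% and 1.94% with and without Mki67, and 3.47% and 1.45% with and without Bnip3. In Egr2-positive cells Bcl2l11 was called too, at 74.9 CPM in NC (463 UMIs) and 46.8 in HC (142 UMIs), or 1.60-fold (log2 -0.96 to -0.40), where 5.92% of genes were higher in NC. The Bcl2l11 difference was small in Mki67-negative cells, at 69.5 and 66.9 CPM. HC cells with Egr2 and NC cells without it stood near each other in Bcl2a1b, at 92.0 and 83.0 CPM.

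**Figure D4:**
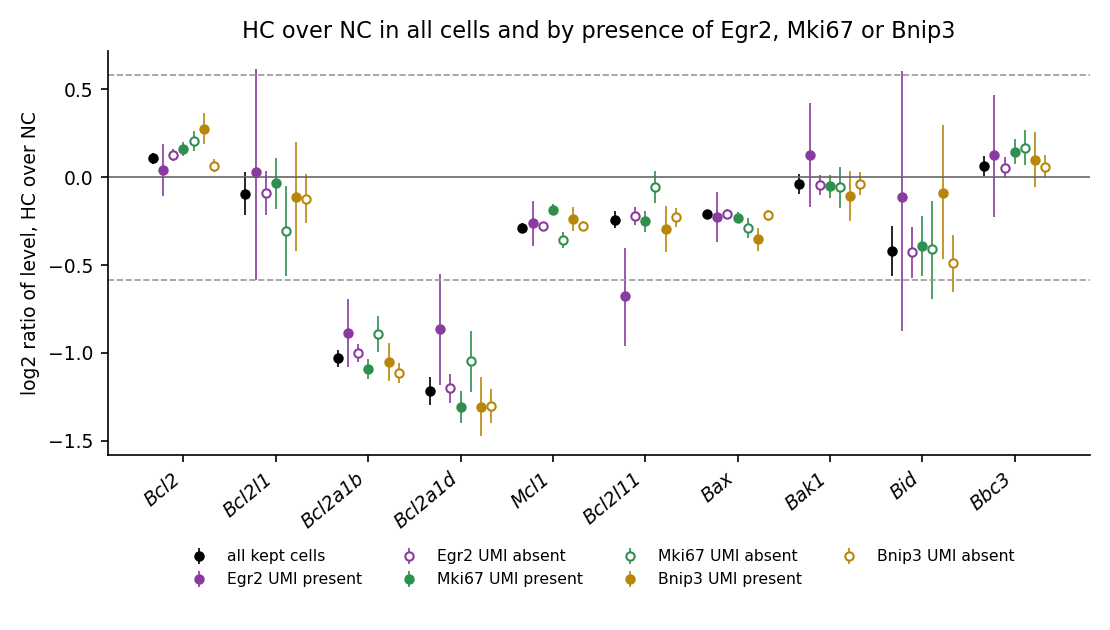
Log2 ratio of level, HC over NC, for each member in all kept cells (black) and in cells with (filled) or without (open) a UMI of Egr2, Mki67 or Bnip3, with 95% counting intervals and dashed lines at 1.5-fold. Bcl2a1b and Bcl2a1d lie below the lower line in each group of cells, between -0.86 and -1.31, and Bcl2 and Bbc3 lie above 0 in each.

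The balance was lower in HC in each of the 6 groups, with intervals that held 0 in Egr2-positive cells (-0.12, -0.26 to 0.01) and Bnip3-positive cells (-0.04, -0.10 to 0.03). The 4 others ran from -0.11 to -0.17. In NC the spread between Egr2-positive and Mki67-positive cells, 1.82 and 1.27, exceeded the gap between the libraries.

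**Figure D5:**
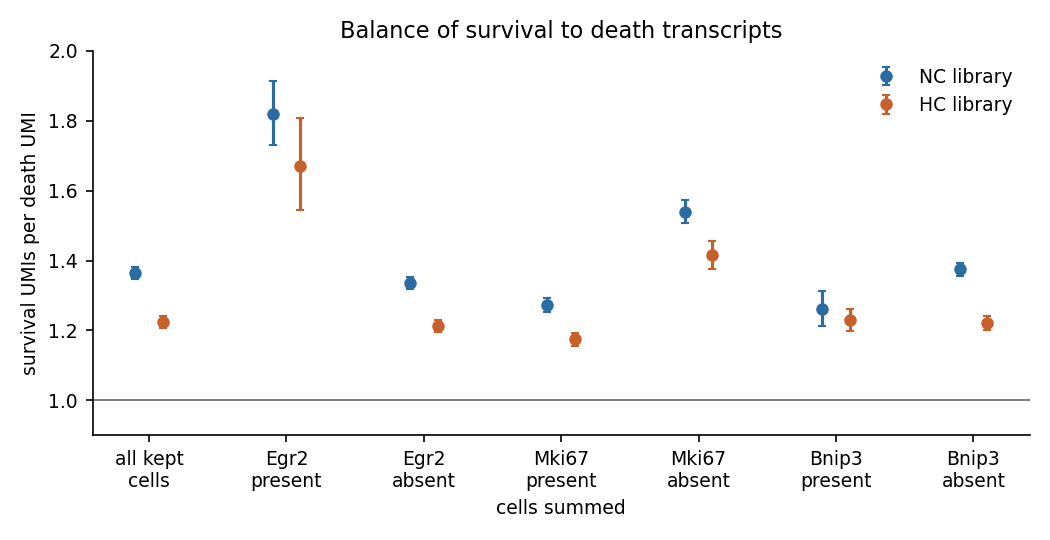
Ratio of survival to death UMIs in all kept cells and by presence of Egr2, Mki67 or Bnip3, NC in blue and HC in orange, with 95% counting intervals. Cells with Egr2 stand highest (1.82 and 1.67) and cells with Mki67 lowest or near it (1.27 and 1.17).

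All 8 combinations of presence of the 3 genes were summed in each library. At least 100 cells stood behind 11 of these sums, and 5 combinations reached that in both libraries. Bcl2a1b and Bcl2a1d were called higher in NC in 5 of 5. Bcl2l11 was called higher in NC in 1, cells with Egr2 and Mki67 but no Bnip3 (-0.73). Bid was called higher in NC there (-0.68, 9.73 CPM in NC and 6.08 in HC). In cells with Bnip3 alone it was called higher in HC (0.61, 4.60 CPM in NC and 7.02 in HC). Bid UMIs were few, with 24 in all HC cells with Egr2 and 80 in all NC cells with Bnip3, so no order is read from these calls. Shares of all genes called higher in NC were 7.9% in cells with Egr2 and Mki67, 3.26% with Mki67 and Bnip3, 1.37% with Mki67 alone, 11.5% with Bnip3 alone and 1.69% with none of the 3. In the same order, 8.64%, 3.63%, 1.17%, 7.29% and 1.54% were called higher in HC. Mcl1, Bcl2l11 and Bax were below 0 in 5 of 5. Bcl2 and Bbc3 were above 0 in 5 of 5. The balance was lower in HC in 4 of 5, the exception being cells with Mki67 and Bnip3 but no Egr2 (1.16 and 1.17). Among the NC sums of at least 100 cells, Bcl2 ranged from 111 CPM in those cells to 230 in the 198 cells with Egr2 alone. Of these sums, cells with Egr2 alone also had the highest Mcl1 (359 CPM), Bcl2a1b (197 CPM) and Bcl2a1d (78.8 CPM). Their balance was 2.28. Bak1 varied least over the same NC sums, from 42.5 to 50.4 CPM.

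Over those 11 points, Pearson's r of log2 CPM was taken between each of the 8 members with at least 20 CPM and 5085 genes, as a description in points that share libraries and depth. Bcl2a1b followed Chchd4, Fkbp1a and Rrp15 most closely (r of 0.98, 0.98 and 0.97), and Bcl2a1d followed Wdr75, Rrp15 and Cnbp (0.98, 0.97 and 0.97). Mcl1 followed Vasp, Rbm4 and Clint1 (0.98, 0.96 and 0.96), and Bcl2 followed Ago2, Srgn and Tgoln1 (0.96, 0.92 and 0.92). Bcl2l11 followed Gpr18, Gucy1a1 and Gnpda2 (0.97, 0.97 and 0.96). Bax followed Mrps28, Ssb and Phf5a (0.97, 0.97 and 0.96), Bbc3 followed Vcpip1, Emb and Rps3 (0.97, 0.96 and 0.96), and Bak1 followed Ehd1, Ubp1 and Mtch2 (each 0.89).

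Other genes around the family were compared between NC and HC by 6 lists. Of all 8704 genes tested, 1.93% were called higher in HC and 1.47% higher in NC. A list this short without a call therefore says little about its genes. Of 16 further family members, 6 reached 5 CPM, 1 was called higher in HC and 0 higher in NC. That 1 was Bnip3, from 9.11 to 43.3 CPM, which also served to split the cells. Its relative Bnip3l, a mitophagy receptor too, was at 129 and 184 CPM (log2 0.52), while Pmaip1, the gene of the MCL1-binding protein NOXA, was at 6.97 and 8.07 CPM and Bad at 31.9 and 30.5 CPM. Bcl2l10 and Hrk had no UMI in either library.

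Downstream, none of the 16 tested genes of the mitochondrial step, apoptosome and caspases was called, with a median of -0.03. Cycs, the cytochrome c released through the pores, was at 219 and 175 CPM, Endog at 21.1 and 25.9, Casp2 at 21.7 and 25.0, and Dffb at 10.2 and 8.78. None of 5 inhibitor of apoptosis genes was called (median -0.01). Birc5, a mitotic gene, was at 324 and 440 CPM, with log2 ratios of -0.11 for Birc2, 0.08 for Xiap and -0.01 for Birc3. Of 9 death receptor genes and adaptors 0 were called (median 0.03), led by the ligand TRAIL, Tnfsf10, at 9.85 and 6.97 CPM, followed by Traf1 (-0.26), Traf2 (-0.24) and Tradd (0.15).

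Neither of the last lists held a gene called between NC and HC. The 13 tested handlers of family proteins, such as the ubiquitin ligases March5 (-0.23) and Fbxw7 (0.14), had a median of -0.03, with Tmbim1 at -0.39 and Ubqln1 at -0.10. The 19 tested transcription factors known to act on the members had a median of -0.15 and were below 0 in 13 of 19. Relb, a subunit of NF-kappaB, was at 23.4 and 16.1 CPM (log2 -0.53), the stress factor Ddit3 at 20.2 and 14.2 CPM, Myb at 51.6 and 38.2 CPM, and Myc at 45.0 and 34.4 CPM. These log2 ratios, down to -0.53, were smaller than those of the A1 pair.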

How the data were processed

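The deposited files hold raw UMI counts per gene and cell barcode of 2 libraries, 1 per group. Cell Ranger 6.1.2 made them, per the file headers, whereas the submitters' processing notes list mm10, Seurat 3.2.3 and Cell Ranger 5.0.0 with no role. How strand and annotation were set is not given in the sources used here.

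Counts were summed over kept cells and divided by the library total (CPM), with exact Poisson intervals. Shares have exact binomial (Clopper-Pearson) intervals, ratios exact binomial ones and balances log odds ratio ones, all at 95%. Cells are not replicates, so no p-value is given. No doublet caller was run, and cells over 3 times the median depth were left out in an alternative. Members and lists were chosen with earlier results of these data known. Named genes are all members, up to 4 of each list with the largest ratio, and 3 most alike per member. Rel, Nfatc1 and Foxo3 are named as well, for their ratios by Egr2. The ratios and intervals were tested on simulated Poisson library sums. That draw follows the model the intervals assume, so it checks the arithmetic and not the spread between cells or libraries. Alternatives covered scaling (TMM of edgeR 4.0.16, size factors of DESeq2 1.42.0 in R 4.3.3), filters, thinning, cell weights and genes in the balance. Python 3.11.15, numpy 2.4.6, scipy 1.17.1, pandas 2.3.3 and matplotlib 3.10.9 were used.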

Additional observations from a re-analysis of the deposited data

Results flagged for a closer look

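Summed over all kept cells, Bcl2 went in opposite directions with Bnip3 in the 2 libraries. In NC, cells with Bnip3 had a Bcl2 level of 121 CPM and cells without it 129 CPM, a log2 ratio of -0.0929 (interval -0.17 to -0.01). In HC the levels were 146 and 135 CPM, a log2 ratio of 0.12 (0.07 to 0.17). The difference between the libraries was not tested, since each group is 1 library. Under 4 alternatives the ratio stayed below 0 in NC (-0.36 to -0.02) and above 0 in HC (0.12 to 0.20). In NC cells without Egr2, Bcl2 was at 110.6 CPM with and 111.3 without Bnip3 where Mki67 was present. Where Mki67 was absent it was at 145.6 and 151.8 CPM. In HC cells without Egr2 the levels were 135 and 123 CPM where Mki67 was present, and 201 and 170 where it was absent. The part of Mki67 in the opposite directions was not tested.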

How the results depend on the processing

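The counts of 2 members higher in NC and 0 higher in HC held under all alternatives except a line lower than 1.5-fold, where Bid made it 3 in NC. Bcl2a1b ran from -1.11 to -0.89 and Bcl2a1d from -1.30 to -1.05 over 12 alternatives. The log2 balance of HC over NC, -0.15, was -0.18 under a stricter cell filter, -0.12 without Mki67 cells, -0.18 without Mcl1, -0.22 without Bax, -0.33 with every gene weighted alike and 0.0297 without Bcl2a1b and Bcl2a1d. That turn follows from leaving out the pair with the largest ratios; the cause of the others was not tested. With presence at 2 or more UMIs, the balance with over without Egr2 was 0.70 in NC and 0.59 in HC, and with over without Bnip3 -0.50 in NC. With presence after thinning it was 0.19 and 0.75 for Egr2, -0.16 and -0.12 for Mki67, and -0.22 and 0.10 for Bnip3 (NC and HC). Bbc3 gained a call lower with Egr2 at 2 or more UMIs (-0.83 and -1.88) and, in HC, after thinning (-1.76). In NC the Bbc3 log2 ratio after thinning was only -0.10. Without Mki67 cells the log2 ratio of Bcl2l11 was -0.05. Thinned, Bcl2l1 turned from -0.09 to 0.20 and Bid went from -0.42 to -0.18. The alternatives without shared barcodes, and the stricter filter for presence, were chosen after seeing the data. No paired analysis was possible because each group is 1 library. Depth limits Bcl2l1 and Bid most, each under 10 CPM.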

Other observations

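Barcodes over 10% mitochondrial UMIs, left out above, numbered 1096 in NC (7.41%) and 1777 in HC (11.5%), with median depths of 958 and 839 UMIs. Per 1000000 non-mitochondrial UMIs, Bcl2 stood at 551 in them against 133 in kept cells in NC, and at 644 against 144 in HC, 4.13-fold and 4.46-fold higher. Of all genes, 41.4% in NC and 40.5% in HC were at least 1.5-fold higher in the left-out barcodes, and Bcl2 lay at percentiles 97.7 and 98.5. Genes that span at least 100000 bases had a median log2 ratio of 0.91 in NC and 0.88 in HC, shorter ones 0.33 and 0.31, and the nuclear RNA Malat1 was at 1.66 and 1.76. Bcl2 spans 176097 bases, and among the genes of at least 100000 bases it lay at percentiles 97.9 (NC) and 98.6 (HC). The parts of gene span and nuclear RNA in the Bcl2 level were not tested.

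The rest of the family was uneven in these barcodes, where the median log2 ratio of all genes tested was 0.40 in NC and 0.39 in HC. Bcl2l11 was 1.98-fold and 1.79-fold higher in them (log2 0.98 and 0.84). Mcl1 was near its level in kept cells (log2 0.10 and 0.13), below that median. Bax was lower in them than in kept cells (-0.64 and -0.52), as was Bcl2a1b (-0.64 and -0.63). Their balance was 2.47 against 1.36 in NC and 2.82 against 1.22 in HC. Within kept cells Bcl2 was also ordered by mitochondrial share, at 124, 132 and 146 on that scale in NC and 122, 138 and 168 in HC for shares of up to 2.5%, up to 5% and up to 10%. Cells in the last range made up 20.8% of NC and 30.5% of HC, so the mitochondrial share moved with the Bcl2 difference between the libraries. Its part in that difference was not tested. Bcl2a1b in those ranges was 96.7, 93.7 and 79.1 in NC and 50.2, 47.1 and 37.4 in HC.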
